A study of Mus musculus with 5 samples.

Results

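Messenger RNAs made by the mitochondrial genome were followed in mouse kidney cells and nuclei. The list held 10 genes: the complex I subunits mt-Nd1, mt-Nd2, mt-Nd4, mt-Nd4l, mt-Nd5 and mt-Nd6, the complex IV subunits mt-Co1 and mt-Co2, the complex III subunit mt-Cytb and the ATP synthase subunit mt-Atp6. They were chosen by name, as the rows of those genes in both deposited count tables, and 9 of the 10 were analysed, out of 18249 genes in both tables. mt-Nd4 was not analysed here. Counts are unique molecular identifiers (UMIs), each standing for 1 captured RNA molecule, and a barcode stands for 1 droplet with a cell or a nucleus.

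There were 5 libraries, with 1 library per group. Whole kidney cells of healthy mouse came from 1 Drop-seq library (3531 barcodes), made after enzymatic digestion and sorting on light scatter. Isolated nuclei, freed by detergent lysis, came from 4 libraries. A library made on the 10x Chromium droplet system held kidney at day 14 of unilateral ureteral obstruction (UUO; 6147 barcodes), a ligation of the ureter that scars the kidney, and another 10x library was from healthy kidney (2084). The 2 further nucleus libraries, also healthy, were made by DroNc-seq (2769), which uses smaller droplets than Drop-seq, and by sNucDrop-seq (3011), which is Drop-seq adapted to nuclei. The dissociation protocol names C57BL/6 mice, and the labels give no ages. Without replicates no difference was tested, and each interval is a 95% interval for counting error alone.

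The mitochondrial genome is a small circle that is copied into long RNAs from both strands. These are cut, largely at the tRNAs that lie between the genes, into mRNAs, tRNAs and the ribosomal RNAs of the organelle. The mRNAs are translated inside the mitochondrion into core subunits of the respiratory chain and of ATP synthase, while all other subunits come from nuclear genes. They stay outside the nucleus, and tubule segments that do much active transport are known to be dense in mitochondria.

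On the mm10 build the 9 transcripts lie on chrM and have no introns. mt-Nd1 lies at chrM:2751-3707, mt-Nd2 at chrM:3914-4951, mt-Co1 at chrM:5328-6872, mt-Co2 at chrM:7013-7696 and mt-Atp6 at chrM:7927-8607. mt-Nd4l lies at chrM:9877-10173, mt-Nd5 at chrM:11742-13565 and mt-Cytb at chrM:14145-15288, all on the plus strand. mt-Nd6, at chrM:13552-14070, is the member on the minus strand. mt-Nd5 and mt-Nd6 run towards each other and share 14 bases at their 3′ ends, which are shown since the counts of both genes are set side by side below. The last 30 bases of each are given 5′ to 3′ from GENCODE M21, with the shared bases in capitals.
mt-Nd5: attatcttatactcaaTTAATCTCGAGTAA
mt-Nd6: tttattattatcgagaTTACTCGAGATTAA

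Parts of the mitochondrial genome also stand in the nuclear chromosomes as annotated pseudogenes, so that a read can match both places. The closest annotated copy was 100% identical to mt-Co2 over 681 bases (Gm28661, chr1:24614885-24615565, minus strand), to mt-Atp6 over 678 bases (Gm10925, chr1:24613974-24614651) and to mt-Nd4l over 294 bases (Gm10222, chr1:24612407-24612700). It was 99.8% identical to mt-Co1 over that gene's last 483 bases (Gm29216, chr1:24615706-24616197). The closest copies of the other members were 96.7% (mt-Nd2, 510 bases), 95.2% (mt-Nd5, 954), 93.6% (mt-Nd6, 519), 92.9% (mt-Cytb, 1142) and 84.0% identical (mt-Nd1, 312). Bases 622 to 681 of mt-Co2 and of its copy are printed to show an identical stretch, and bases 1084 to 1143 of mt-Cytb and of its copy Gm11410 to show one with 5 mismatches, in capitals.
mt-Co2: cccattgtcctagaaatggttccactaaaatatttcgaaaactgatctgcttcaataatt
Gm28661: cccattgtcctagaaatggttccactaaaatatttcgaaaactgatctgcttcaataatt
mt-Cytb: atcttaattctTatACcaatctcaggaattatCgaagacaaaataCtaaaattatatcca
Gm11410: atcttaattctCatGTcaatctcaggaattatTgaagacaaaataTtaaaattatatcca
The sources used here do not say how reads that match 2 places were counted, and the part of the copies in the counts was not tested.

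The 9 transcripts together were a large part of what Drop-seq cells yielded and a trace of what nuclei yielded. They took 8.12% of the UMIs of Drop-seq cells (558282 counts, interval 8.10 to 8.14). They took 0.0244% of the UMIs of UUO 10x nuclei (1810 counts), 0.0359% of healthy 10x nuclei (1058), 0.0131% of DroNc-seq nuclei (767) and 0.0335% of sNucDrop-seq nuclei (1553). A Drop-seq barcode held a mean of 158.1 such UMIs and every one of the 3531 barcodes held at least 1. A nucleus held a mean of 0.294 in UUO, 0.508 in healthy 10x, 0.277 in DroNc-seq and 0.516 in sNucDrop-seq. No UMI of the 9 was found in 77.4% of UUO nuclei, 65.6% of healthy 10x nuclei, 83.5% of DroNc-seq nuclei and 73.2% of sNucDrop-seq nuclei. The counts were uneven among nuclei: the 1% of barcodes richest in them held 13.98% of these counts in UUO, 10.7% in healthy 10x, 23.5% in DroNc-seq and 20.5% in sNucDrop-seq, against 4.98% in Drop-seq cells.

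The libraries held between 2947137 and 7411036 UMIs, with a median of 1055 to 1630 per barcode. In Drop-seq cells the transcripts of all mt- rows together took between 6.25% and 49.98% of a barcode's UMIs, so that the barcodes in the table ended just below 50%. Drop-seq and sNucDrop-seq shared 1 barcode sequence, UUO and healthy 10x shared 23, and no other pair of libraries shared any. Malat1, a nuclear long RNA, stood at 9949 CPM (counts per 1000000 UMIs) in Drop-seq cells, 91707 in UUO, 83572 in healthy 10x, 153178 in DroNc-seq and 108290 in sNucDrop-seq nuclei. Xist, the RNA of the inactive X chromosome in females, stood at 0.405 CPM in UUO, 1321 in healthy 10x and 1309 in DroNc-seq and was at 0 in Drop-seq and sNucDrop-seq, so that cells over 10x nuclei, cells over DroNc-seq nuclei and UUO over healthy 10x nuclei also differ in a sex-linked RNA, while cells over sNucDrop-seq nuclei do not. Its part in those differences was not tested. Of the authors' labels with at least 20 barcodes, all 9 checked in Drop-seq, 11 in healthy 10x, 12 in DroNc-seq and 12 in sNucDrop-seq had their own marker genes above their level in every other class. In UUO this held for 13 of 16, the exceptions being CD-PC, Fib.2 and Prolif. PT. The check compares each marker list between classes. It does not weigh markers of other cells in the same barcodes, which for Drop-seq are given below.

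**Figure D1:**
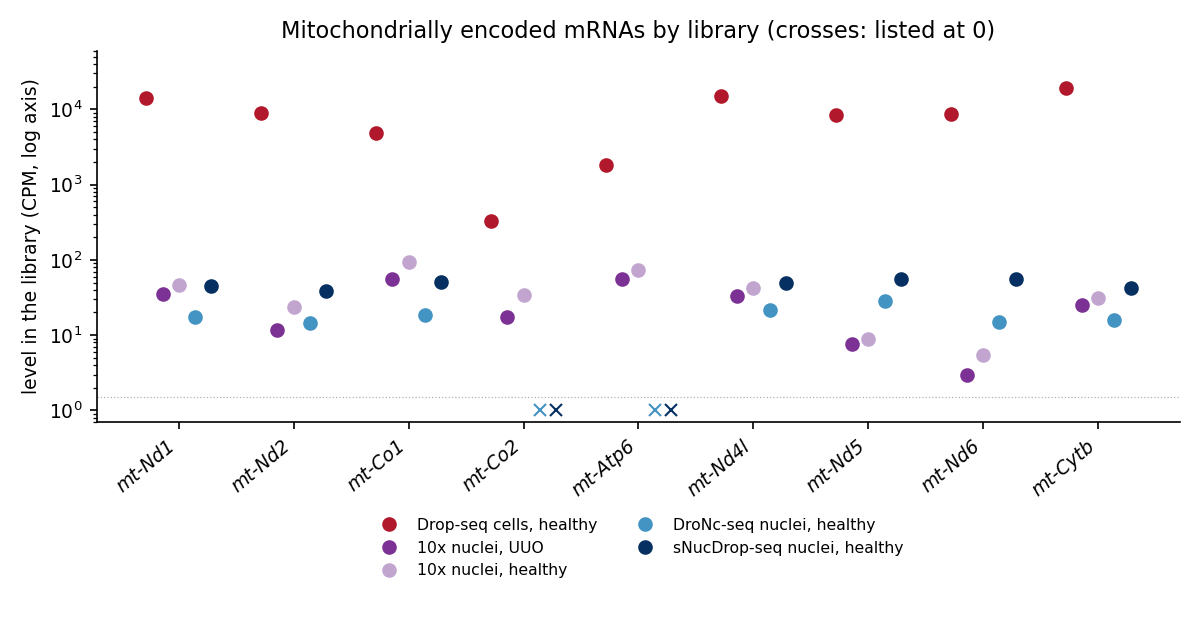
Level of each transcript in each library, in CPM on a log axis, with genes in their order on the mitochondrial genome. Each point is 1 library, and crosses at the foot of the axis mark transcripts listed at 0. Drop-seq cells lie above every nucleus library for all 9 transcripts, and mt-Co2 and mt-Atp6 were listed at 0 in DroNc-seq and sNucDrop-seq nuclei.

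The complex I subunits, which build the membrane arm of the enzyme that takes electrons from NADH, gave most of the Drop-seq counts. mt-Nd1, a subunit beside the ubiquinone site, had 14215 CPM in Drop-seq cells, against 35.1 in UUO, 46.8 in healthy 10x, 17.2 in DroNc-seq and 44.5 in sNucDrop-seq nuclei. mt-Nd4l, the smallest of these subunits, had 15099 CPM in Drop-seq cells, against 33.6, 41.7, 21.7 and 49.0 CPM in UUO, healthy 10x, DroNc-seq and sNucDrop-seq nuclei. mt-Nd2, one of the subunits related to proton-pumping antiporters, had 8893 CPM in Drop-seq cells, against 11.6 in UUO, 23.8 in healthy 10x, 14.3 in DroNc-seq and 38.2 in sNucDrop-seq nuclei. The 3 were high in cells and low in every nucleus library, with DroNc-seq or UUO the lowest. mt-Nd5, another antiporter-like subunit, had 8367 CPM in Drop-seq cells, 7.56 in UUO, 8.82 in healthy 10x, 28.5 in DroNc-seq and 55.7 in sNucDrop-seq nuclei. mt-Nd6, from the opposite strand, had 8586 CPM in Drop-seq cells, 2.97 in UUO, 5.43 in healthy 10x, 15.2 in DroNc-seq and 55.1 in sNucDrop-seq nuclei. For this pair the 10x libraries lay below both DroNc-seq and sNucDrop-seq.

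mt-Cytb, the cytochrome b of complex III, was the transcript with most counts in Drop-seq cells, at 19045 CPM, against 24.8 in UUO, 31.2 in healthy 10x, 15.7 in DroNc-seq and 42.5 in sNucDrop-seq nuclei. mt-Co1, the catalytic core of cytochrome oxidase, had 4888 CPM in Drop-seq cells, 56.0 in UUO, 93.7 in healthy 10x, 18.2 in DroNc-seq and 50.3 in sNucDrop-seq nuclei. It was the transcript with most counts in both 10x libraries, though in UUO by only 415 counts against 409 of mt-Atp6. mt-Co2, the subunit that takes up electrons from cytochrome c, had 330.2 CPM in Drop-seq cells, 17.4 in UUO and 34.6 in healthy 10x nuclei and was listed at 0 in DroNc-seq and sNucDrop-seq. mt-Atp6, part of the proton channel of ATP synthase, had 1815 CPM in Drop-seq cells, 55.2 in UUO and 73.0 in healthy 10x nuclei and was likewise listed at 0 in DroNc-seq and sNucDrop-seq. In Drop-seq cells mt-Co2 was found in 1489 barcodes and each other member in at least 3045.

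Divided by annotated gene length, the order of the genes changed. That length is of the gene alone. On the genome mt-Nd4l shares 7 bases with mt-Nd4, and mt-Atp6 shares 43 bases with its neighbour mt-Atp8. The length of the RNAs counted was not measured. These libraries capture RNA by its poly(A) tail, so that counts need not scale with length and the order per kilobase is a description of this scale. In Drop-seq cells mt-Nd4l, the shortest at 297 bases, had the highest value, 50838 CPM per kb, followed by mt-Cytb (16648), mt-Nd6 (16543), mt-Nd1 (14854), mt-Nd2 (8568), mt-Nd5 (4587), mt-Co1 (3164), mt-Atp6 (2665) and mt-Co2 (482.7). In healthy 10x nuclei mt-Nd4l was again first (140.5 CPM per kb), but mt-Atp6 was next (107.1), then mt-Co1 (60.6) and mt-Co2 (50.6). mt-Nd6 (10.5) and mt-Nd5 (4.84) were last.

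The proportions among the 9 transcripts fell into 3 patterns, 1 in Drop-seq cells, 1 in both 10x libraries and 1 in DroNc-seq and sNucDrop-seq nuclei. The difference between 2 make-ups is given as the sum of the absolute differences in percent, divided by 2, which is 0 for equal make-ups and 100 for ones with nothing in common. Drop-seq cells differed by 47.4 from healthy 10x nuclei, by 20.4 from DroNc-seq and by 21.6 from sNucDrop-seq nuclei. Healthy 10x differed by 41.0 from sNucDrop-seq nuclei. Within the pairs the distances were smaller, at 7.83 between UUO and healthy 10x and 7.10 between DroNc-seq and sNucDrop-seq. Library chemistry and kidney sample cannot be told apart in these distances.

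In Drop-seq cells mt-Cytb made up 23.4% of the counts of the 9 transcripts (23.3 to 23.6), mt-Nd4l 18.6% and mt-Nd1 17.5%, while mt-Co1 made up 6.02%, mt-Atp6 2.23% and mt-Co2 0.406%. In sNucDrop-seq nuclei the 7 transcripts detected lay closer together, between 11.4% for mt-Nd2 (9.86 to 13.1) and 16.6% for mt-Nd5 (14.8 to 18.6). DroNc-seq nuclei were similar, between 10.95% for mt-Nd2 and 21.8% for mt-Nd5 (18.9 to 24.9). In the 10x libraries mt-Co1 and mt-Atp6 led. mt-Co1 made up 22.9% in UUO (21.01 to 24.9) and 26.1% in healthy 10x nuclei (23.5 to 28.8), and mt-Atp6 made up 22.6% and 20.3%. mt-Nd6 made up 1.22% in UUO and 1.51% in healthy 10x nuclei, the smallest proportion in both.

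**Figure D2:**
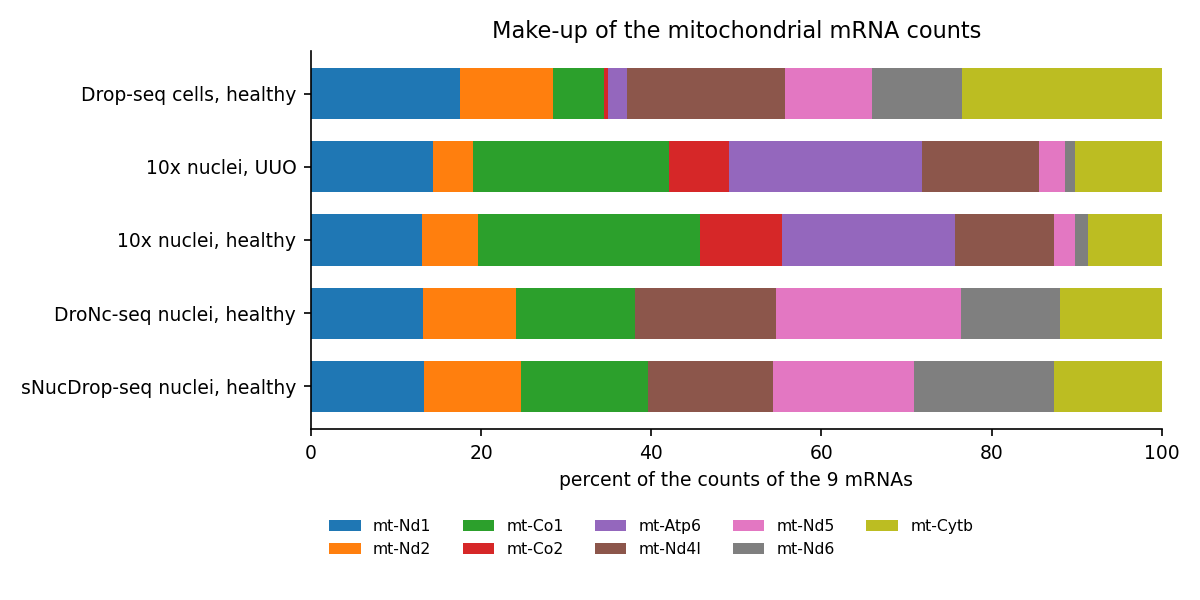
Percent of the counts of the 9 transcripts taken by each of them, 1 bar per library. mt-Co1, mt-Co2 and mt-Atp6 fill 56.0% of the healthy 10x bar and 8.66% of the Drop-seq bar, and mt-Nd5 with mt-Nd6 fill 3.97% of the healthy 10x bar and 20.9% of the Drop-seq bar.

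Ratios of counts within a library show the same shifts. mt-Atp6 had 0.0953 counts per count of mt-Cytb in Drop-seq cells (0.0935 to 0.0971), against 2.22 in UUO (1.86 to 2.66) and 2.34 in healthy 10x nuclei (1.82 to 3.02). mt-Co2 had 0.0675 counts per count of mt-Co1 in Drop-seq cells, against 0.311 in UUO and 0.370 in healthy 10x nuclei, where the intervals of the 10x libraries ran from 0.253 to 0.465. In DroNc-seq and sNucDrop-seq nuclei mt-Atp6 and mt-Co2 were listed at 0, so that neither ratio was raised over the cells there. mt-Nd6 had 1.03 counts per count of mt-Nd5 in Drop-seq cells, 0.393 in UUO, 0.615 in healthy 10x, 0.533 in DroNc-seq and 0.988 in sNucDrop-seq nuclei. The ratio was thus near 1 in Drop-seq and sNucDrop-seq, below 1 beyond counting error in UUO (0.228 to 0.654) and DroNc-seq (0.407 to 0.693), and not clear of 1 in healthy 10x (0.308 to 1.19). The sources used here do not say whether the counting used strand, so reads of mt-Nd5 and mt-Nd6 over the shared bases cannot be told apart. The same holds for any reads of the plus strand over the rest of mt-Nd6. By contrast mt-Nd4l and mt-Nd1 kept a ratio between 0.891 and 1.26 in all 5 libraries. mt-Nd4l has an identical nuclear copy, as have mt-Co2 and mt-Atp6. Of the copies named above Gm10222 had a row in the healthy table, with 1036 counts in Drop-seq cells and 0 in the healthy nuclei. Gm4076, the mt-Nd5 copy, had 3630 counts in Drop-seq cells, 11 in sNucDrop-seq and 0 in the other libraries.

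Whole cells were then set against nuclei in the proximal tubule, which takes back most of the filtrate and was the most abundant class in Drop-seq. Genes were measured if listed in both libraries with 20 counts or more in the 2 sums together, and counted as higher or lower past 2-fold. All 7 transcripts measured against sNucDrop-seq nuclei were higher in cells, as were 17.9% of the 12838 genes measured. All 7 measured against DroNc-seq nuclei were higher (19.7% of 12727 genes), and all 9 against healthy 10x nuclei (21.6% of 10956 genes). The median gene of the whole table lay below 0 in each, at a log2 ratio of -0.93, -0.92 and -0.80 against sNucDrop-seq, DroNc-seq and 10x nuclei.

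The summed transcripts stood at 80262 CPM in Drop-seq proximal tubule cells, against 326.7 CPM in sNucDrop-seq nuclei, a 246-fold difference (log2 ratio 7.94, 7.85 to 8.03). They stood at 137.1 CPM in DroNc-seq nuclei, 586-fold below the cells (log2 9.19, 9.06 to 9.33). They stood at 326.7 CPM in healthy 10x nuclei as well (log2 7.94, 7.80 to 8.09). The sums over sNucDrop-seq and 10x nuclei were thus equal within counting error although their make-up differed.

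Single transcripts spread more widely. Against sNucDrop-seq nuclei the log2 ratio ran from 6.74 for mt-Co1 (6.49 to 7.01; 27637 against 126 counts) to 8.69 for mt-Cytb (8.44 to 8.95; 109949 against 130), with a median of 7.84. Against DroNc-seq nuclei it ran from 8.16 for mt-Nd5 to 10.19 for mt-Cytb, with a median of 9.15. mt-Cytb was thus the highest in both. Against healthy 10x nuclei the span was far wider, from 3.80 for mt-Co2 (3.27 to 4.40; 1938 against 28 counts) and 4.86 for mt-Atp6 (4.53 to 5.21) to 10.73 for mt-Nd6 (9.61 to 12.18), where the nuclei held 6 counts. mt-Co1 lay at 5.71, and the others between 8.45 and 9.36. mt-Co2 and mt-Atp6, listed at 0 in DroNc-seq and sNucDrop-seq nuclei, have no ratio there; their sums were 1938 and 10374 counts in the cells.

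**Figure D3:**
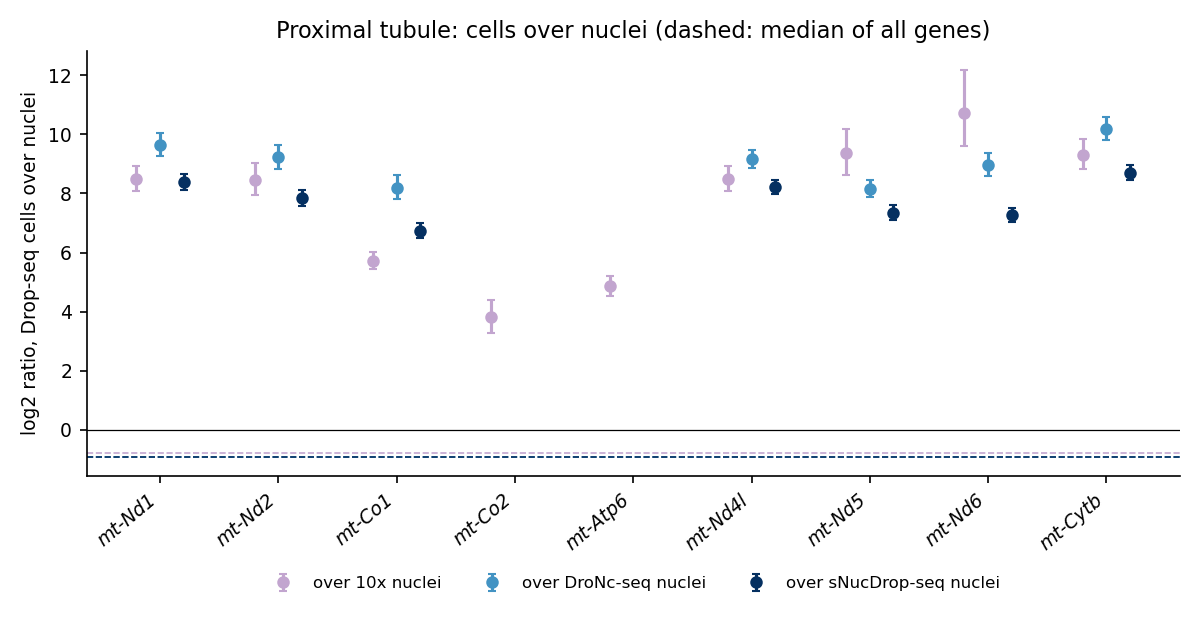
Log2 ratio of each transcript in proximal tubule sums, Drop-seq cells over nuclei of 3 libraries; bars are exact 95% counting intervals and dashed lines the median of all genes measured. Every point lies above 3.8, and the points over 10x nuclei spread from 3.80 for mt-Co2 to 10.73 for mt-Nd6.

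The difference was found in every label with at least 20 barcodes in both libraries. Against sNucDrop-seq nuclei it ran from 155-fold in endothelium (EC; 91080 against 586.5 CPM) to 410-fold in distal convoluted tubule (DCT; 91070 against 221.9 CPM), over 9 labels. Against healthy 10x nuclei it ran from 96.7-fold in EC to 370-fold in DCT, over 8 labels. Against DroNc-seq nuclei it ran from 413-fold in the S3 proximal tubule to 1575-fold in DCT, over 9 labels, and the DCT nuclei held 17 counts. EC nuclei stood above DCT nuclei in all 3 libraries, while EC and DCT cells were level.

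Nuclear genes of the same enzymes were also higher in cells, by far smaller factors. Against sNucDrop-seq nuclei, 32 of 35 nuclear complex I genes were higher and none lower (median log2 2.77), among them Ndufa6 (900.4 against 125.1 CPM) and Ndufa5 (580.8 against 64.6). All 4 genes of complex II, which has no mitochondrially encoded subunit, were higher (median 2.21), with the iron-sulfur subunit Sdhb at 644.8 against 140.7 CPM. All 9 nuclear complex III genes were higher (median 2.94), with Uqcr10 at 920.7 against 101.5 CPM, and all 11 of complex IV (median 2.80), with Cox6c at 1768 against 200.2 CPM. Of 17 ATP synthase genes 15 were higher (median 2.49), with the beta subunit Atp5b at 1137 against 226.9 CPM, and 1 was lower, the ring subunit gene Atp5g2 (7.97 against 24.7 CPM). The share of all genes that were higher in this comparison was the 17.9% given above.

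Genes that serve the expression of the mitochondrial genome were more varied. In this comparison 48.7% of the 12838 genes measured were lower in cells past 2-fold. Of 73 genes of the mitochondrial ribosome 58 were higher in cells and 2 lower (median log2 1.81), with Mrps21 at 280.9 against 75.1 CPM and Mrps6, one of the lower ones, at 46.8 against 102.2 CPM. Of 31 genes of mitochondrial transcription and RNA processing 9 were higher and 9 lower (median -0.43), a smaller share lower than among all genes. Tfam, which packs mitochondrial DNA and starts its transcription, was higher (81.9 against 26.8 CPM), as were the RNA-binding proteins Slirp (176.4 against 39.3) and Grsf1 (141.8 against 41.4), while Lrpprc, the partner of Slirp, had 80.1 against 119.9 CPM (log2 -0.58, -0.79 to -0.38), short of 2-fold. Of 11 nuclear regulators of mitochondrial genes none was higher and 8 were lower (median -2.53), against 48.7% of all genes lower. Esrrg, an orphan nuclear receptor, stood at 82.6 CPM in cells against 2213 in nuclei, the fatty acid receptor Ppara at 92.8 against 937.9, the coactivator Ppargc1a at 54.3 against 313.1 and the factor Nrf1 at 16.5 against 161.6. The regulators thus lay further below 0 than the median gene (-0.93).

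Within Drop-seq cells the 9 labels with at least 20 barcodes spanned 1.77-fold. The 20 barcodes labelled macrophage had the highest share, 11.7% of UMIs (11.4 to 12.0). Next came the early proximal tubule, PT(S1-S2), with 9.78% (9.74 to 9.82), then EC with 9.11% (8.79 to 9.43), DCT with 9.11% (9.01 to 9.21) and the ascending limb of the loop of Henle, LH(AL), with 9.09% (8.96 to 9.21). EC, DCT and LH(AL) did not differ beyond counting error. The connecting tubule (CNT) had 8.14% (8.02 to 8.26) and type A intercalated cells (IC-A) 8.05% (7.77 to 8.34), which also overlapped. The late proximal tubule, PT(S3), had 7.11% (7.09 to 7.14) and principal cells (CD-PC) had the lowest share, 6.61% (6.42 to 6.79). The 4 labels with fewer barcodes were not ordered, and ran from 4.96% in the descending limb, LH(DL) (4.69 to 5.25; 16 barcodes), to 9.97% in type B intercalated cells, IC-B (16 barcodes).

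Barcodes of 1 label varied more than labels did. In PT(S1-S2) the middle 90% of barcodes ran from 3.60% to 18.3% with a median of 8.22%, and in CD-PC from 2.38% to 14.8% with a median of 5.88%. By the median barcode PT(S1-S2) came after LH(AL) (8.76%), DCT (8.39%) and EC (8.23%), and 30 of the 36 pairs of labels kept their order.

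**Figure D4:**
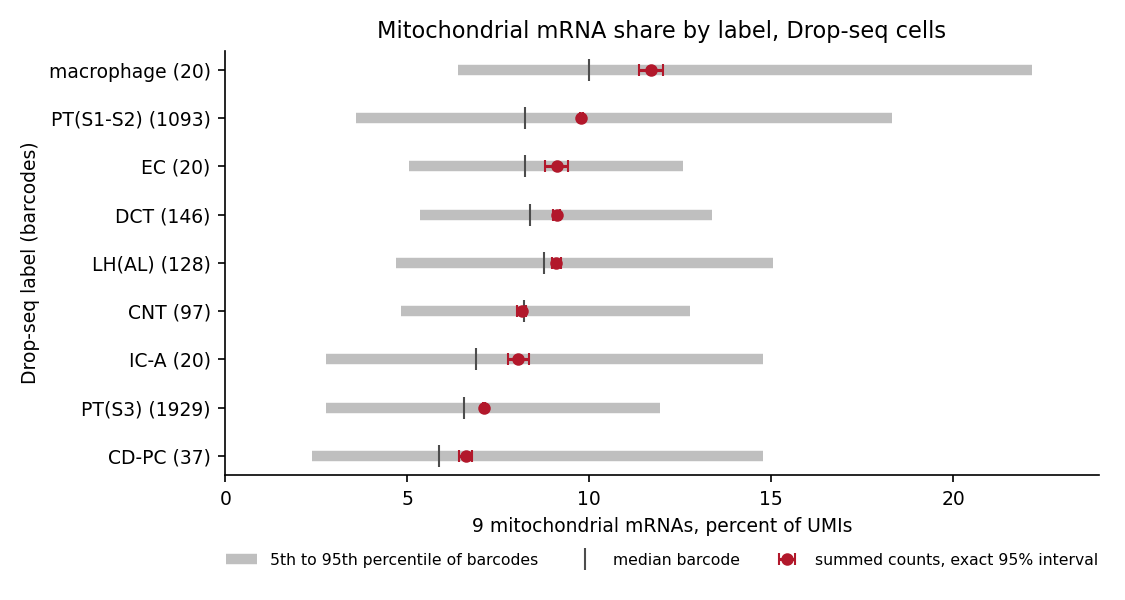
Share of UMIs taken by the 9 transcripts in the 9 Drop-seq labels with at least 20 barcodes, whose number is in brackets. Red points are summed counts with exact 95% intervals, ticks the median barcode and grey bars the 5th to 95th percentile of barcodes. Shares run from 6.61% in CD-PC to 11.7% in macrophage, and the grey bars of the labels shown overlap.

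Markers of other cells moved with some labels. Macrophage barcodes held 998 CPM of the 4 macrophage markers, all detected, 6230 CPM of plasma and B cell markers and 16695 CPM of proximal tubule markers. In the other ordered labels outside the proximal tubule, the 7 proximal tubule markers summed to between 5727 CPM in DCT and 18916 CPM in EC. They summed to 20322 in PT(S1-S2) and 48328 in PT(S3). EC barcodes held 500.3 CPM of the 3 endothelium markers. In the labels that were not ordered, the proximal tubule markers summed to 13851 CPM in IC-B, 25419 in LH(DL), 27065 in MC and 27770 in Pod. LH(AL) held 6732 CPM of red blood cell markers, and 1391 of its 1401 such counts lay in 4 barcodes. Without them, a choice made after the values were seen, its share was 9.16% (9.04 to 9.29). The part of free RNA or of other cells in the shares was not tested.

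The early proximal tubule stood above the late one at each depth. Among the barcodes of lowest depth in each label, split into 3 equal parts by UMIs, PT(S1-S2) had 7.90% and PT(S3) 6.27%; in the middle part 10.3% and 7.12%, and in the deepest part 10.2% and 7.38%. Nuclei gave the same direction in 2 of 3 healthy libraries, with 389.2 against 253.1 CPM in 10x nuclei and 416.8 (382.3 to 453.5) against 253.1 CPM (228.9 to 279.1) in sNucDrop-seq nuclei. In DroNc-seq nuclei PT(S1-S2) was the lower, at 124.7 CPM (111.1 to 139.5) against 172.1 (145.6 to 202.0) in PT(S3). In UUO nuclei the label PT(S1) had 243.2 CPM (196.8 to 297.3), PT(S2) 173.3 (155.8 to 192.3) and PT(S3) 147.3 (121.5 to 177.0). The intervals of PT(S2) and PT(S3) overlapped.

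The order of labels was not that of the nuclear respiratory genes. Nuclear genes of the respiratory chain and ATP synthase took 8.82% of the UMIs outside mt- rows in DCT, 7.24% in LH(AL) and 7.08% in IC-A, above 5.60% in PT(S1-S2), 5.27% in PT(S3), 5.11% in EC and 4.95% in CD-PC. Among the ordered labels, counts of the 9 transcripts per count of these nuclear genes were thus lowest in DCT (1.41) and IC-A (1.52). They stood at 2.43 in PT(S1-S2) and 2.496 in EC. Macrophage barcodes had 3.56.

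The single transcripts kept similar proportions across labels. mt-Cytb ranged from 22.02% of the 9 in IC-A to 25.5% in DCT, mt-Nd1 from 15.5% in DCT to 19.3% in macrophage, and mt-Co1 from 5.29% in EC to 7.47% in DCT. mt-Nd4l ranged from 17.2% in IC-A to 18.7% in LH(AL). mt-Atp6 ranged from 1.82% in macrophage to 2.63% in DCT and mt-Co2 from 0.259% in CD-PC to 0.467% in IC-A. By mt-Nd2 alone 35 of 36 pairs of labels kept the order of the sum, by mt-Nd1, mt-Nd4l or mt-Nd6 alone 33, and by mt-Atp6 or mt-Co2 alone 25. Per-label levels of mt-Cytb ran from 16235 CPM in CD-PC to 26674 CPM in macrophage.

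The genes whose pattern over the 9 labels was most like that of the summed transcripts were Myo3a, Trhde, Racgap1, Slc35d2 and Uchl5, among 3923 genes averaging 50 CPM or more. Pearson's r was 0.97, 0.96, 0.95, 0.93 and 0.88 on log2(CPM + 10), scaled to UMIs outside mt- rows. It is a description over 9 labels that share 1 library. Myo3a, a myosin of the inner ear and retina, had 86437 counts in Drop-seq cells, or 15.5% of the summed counts of the 9 transcripts, and between 15.1% and 17.8% in each of the 9 labels. It stood at 12578 CPM in Drop-seq cells, 17.1 in UUO, 39.4 in healthy 10x, 41.4 in DroNc-seq and 138.0 in sNucDrop-seq nuclei. In the proximal tubule the log2 ratio against sNucDrop-seq nuclei was 6.61 for Myo3a (6.46 to 6.76), 6.76 for Trhde and 7.24 for Racgap1, near the 6.74 of mt-Co1, and 2.43 for Slc35d2 and 1.13 for Uchl5. On mm10 Myo3a spans chr2:22227503-22618252 on the plus strand, and inside it the annotation places 3 copies of mitochondrial genes on the minus strand. These are Gm13341 (mt-Co2, 95.9% identical), Gm13340 (mt-Co1, 97.6% over 1545 bases) and Gm13339 (mt-Nd2, 96.7%). No annotated copy of at least 150 aligned bases lay inside the other 4 genes. Whether reads of mitochondrial RNA were counted for Myo3a was not tested.

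Injury was addressed by setting nuclei of the obstructed kidney against healthy nuclei, both on the 10x system. The 9 transcripts summed to 244.2 CPM in UUO nuclei and 359.0 CPM in healthy nuclei (log2 ratio -0.56, -0.67 to -0.44), against a median of -0.16 over all genes. Taken singly, the 9 had a median log2 ratio of -0.42. Past 2-fold, 1 of 9 was lower, mt-Nd2 (11.6 against 23.8 CPM; log2 -1.03, -1.51 to -0.56), against 20.5% of the 12831 genes measured.

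In the proximal tubule the sum was 174.7 CPM in UUO nuclei (2352 barcodes) and 326.7 CPM in healthy nuclei (705 barcodes), a log2 ratio of -0.90 (-1.09 to -0.72) against a median of -0.10 over all genes. The 8 transcripts measured had a median of -0.87. Past 2-fold, 3 of 8 were lower, against 20.7% of 11395 genes. They were mt-Nd2 (7.70 against 25.3 CPM; log2 -1.71, -2.51 to -0.92), mt-Nd5 (5.50 against 12.6 CPM; log2 -1.20, -2.24 to -0.13) and mt-Co1 (40.7 against 89.3 CPM; log2 -1.13, -1.50 to -0.76). mt-Atp6 was closest to 0, at 39.6 against 60.6 CPM (log2 -0.61, -1.03 to -0.19). mt-Nd6 held 6 counts in each and was not measured. The sum stood at -1.08 in S1 and S2 labels alone (-1.30 to -0.85) and at -0.78 in S3 labels alone (-1.15 to -0.41), 2 settings chosen after the values were seen.

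The difference varied among classes. The log2 ratio was -1.11 in EC (437.1 against 942.2 CPM; -1.60 to -0.60), -0.97 in CD-PC (241.5 against 473.2 CPM; -1.46 to -0.47), -0.59 in descending limb (-1.10 to -0.07) and -0.31 in ascending limb (-0.57 to -0.06). The intervals spanned 0 in DCT (0.20, -0.23 to 0.63), CNT (0.11, -0.32 to 0.55), intercalated cells (0.07, -0.43 to 0.58) and podocytes (0.04, -0.65 to 0.73). The interval of the proximal tubule lay below those of ascending limb, DCT, CNT, intercalated cells and podocytes. A class was summed from the authors' labels of each library, and the healthy EC sum rests on 46 barcodes and 51 counts. The labels of a class were not the same in both libraries. For descending limb, the UUO label DL and tAL, which by name also holds thin ascending limb, was set against LH(DL). In UUO the proximal tubule also held Dediff. PT (117 barcodes) and Prolif. PT (81). Without these 2 labels its log2 ratio was -0.90 (-1.09 to -0.71).

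**Figure D5:**
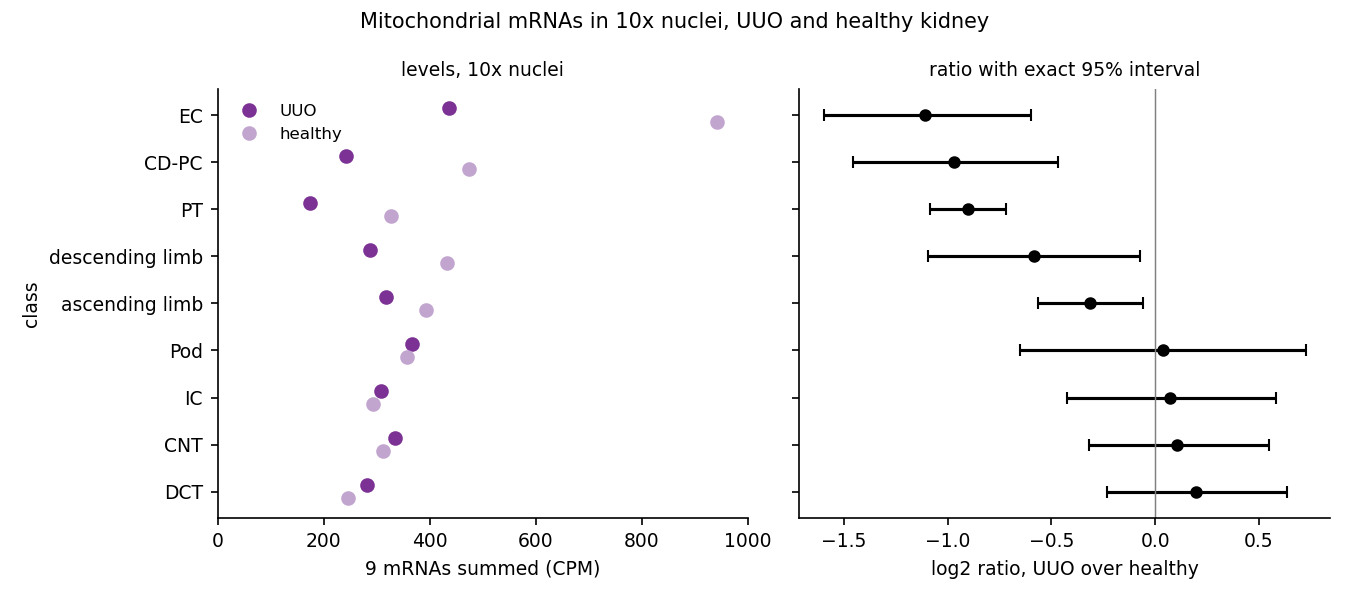
Left, summed level of the 9 transcripts in each class of 10x nuclei, in CPM, for UUO and healthy kidney. Right, the log2 ratio of UUO over healthy with its exact 95% counting interval. EC, CD-PC, PT, descending limb and ascending limb lie below 0, and the intervals of the other 4 classes span 0.

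Markers moved with this comparison too. Proximal tubule markers summed to 928 CPM in UUO proximal tubule nuclei and 12507 in healthy ones, and principal cell markers to 316.0 CPM in UUO CD-PC and 6091 in healthy CD-PC. A class's own markers were also lower where the interval of the transcripts spanned 0 or came near it, at 1456 against 15865 CPM in DCT, 1368 against 39970 in CNT, 658.0 against 3650 in intercalated cells and 1383 against 16114 in ascending limb. In the compared classes outside the proximal tubule, the proximal tubule markers summed to between 97.7 and 206.8 CPM in UUO. In healthy kidney they summed to between 931.5 and 3106 CPM. Own markers were close in EC (2036 CPM in UUO and 2198 in healthy kidney), podocytes (2088 and 2231) and descending limb (1218 and 1107). Proximal tubule markers stood above the own markers in healthy podocytes (3106 CPM) and healthy descending limb (1444), and below them in healthy EC (1811). In UUO they stood at 173.2 CPM in podocytes, 121.0 in descending limb and 189.0 in EC. Median depth was 530.5 UMIs in UUO EC and 760 in healthy EC, 1412 and 1491 in the proximal tubule, 792 and 1363 in DCT and 935 and 1319 in CNT. In CD-PC it was higher in UUO, at 1198 against 851 UMIs. The part of free RNA, cell state or depth in the differences was not tested, and sex-linked Xist, library and injury cannot be told apart.

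Nuclear genes of the respiratory chain had medians below 0 in the same contrast. In the proximal tubule none was higher past 2-fold, and 6 of 34 genes of complex I (median log2 -0.63), 1 of 4 of complex II (-0.74), 3 of 9 of complex III (-0.77), 2 of 10 of complex IV (-0.46) and 7 of 17 of ATP synthase (-0.84) were lower, against 20.7% of all genes. The mitochondrial ribosome had 6 of 65 higher, against 14.6% of all genes, and 6 lower (median -0.25), transcription and RNA processing 1 of 26 higher and 7 lower (-0.48), and the regulators none of 11 higher and 4 lower (-0.55). All these medians lay below the -0.10 of all genes.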

How the data were processed

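The values are raw UMI counts per gene and barcode in tables that the authors deposited and, per the deposited readme, made with zUMIs. STAR 2.5.3a and mm10 are named per the submitters' processing notes. For intron and strand counting, the annotation and barcode filters: not given in the sources used here. Values were whole numbers, and labels were those of the authors' deposited annotation. No doublet caller was run.

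Member counts were summed within each label of a library and divided by the sum's total UMIs. Shares carry exact Clopper-Pearson 95% intervals and ratios exact intervals conditional on their total; the ratio code was tested on simulated data. Groups of 1 library allowed no test. Genes at 0 over a whole library are called listed at 0, since in DroNc-seq and healthy 10x the smallest gene total was 6 and 4 counts, and have no fold. The members and the gene lists were chosen with earlier results of these data known. Named genes were all members and, per list, the 4 with the highest mean CPM in Drop-seq and sNucDrop-seq proximal tubule, members 2-fold the other way from the list median, and the 5 genes most alike in pattern; those described are a part of them. Positions and transcript sequences came from GENCODE M21 and copies from BLAST 2.17.0.

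Alternatives were barcode minimums of 500 and 1000 UMIs, no barcodes above 3 label medians, TMM and median-of-ratios scaling, other totals, mean CPM over barcodes, count minimums of 1 and 100, and single labels. Python 3.11.15, numpy 2.4.6, scipy 1.17.1, pandas 2.3.3, matplotlib 3.10.9, R 4.3.3 and edgeR 4.0.16 (TMM only) were used.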

Additional observations from a re-analysis of the deposited data

Results flagged for a closer look

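Some mt- rows outside the 9 mRNAs held signal in Drop-seq cells. The ribosomal RNAs mt-Rnr2 and mt-Rnr1 took 15.98% of all Drop-seq UMIs, more than the 9 mRNAs together, with 938875 and 159470 counts. They were listed at 0 in healthy 10x nuclei and took 0.209% of the UMIs in sNucDrop-seq. The 15 mitochondrial tRNA rows held 2620 counts in Drop-seq cells, 11 in DroNc-seq and 82 in sNucDrop-seq. mt-Nd3 and mt-Atp8, 2 more mRNAs, held 8809 counts in Drop-seq cells, 195 in UUO, 93 in healthy 10x, 0 in DroNc-seq and 7 in sNucDrop-seq. In both 10x libraries most of these were mt-Atp8, with 188 counts in UUO and 78 in healthy kidney. No explanation of these signals was tested.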

How the results depend on the processing

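No ratio changed sign under the 82 alternatives run, but medians of cells over nuclei, at 7.49 or more, lay far from such a change. In all, 58 values stayed within the counting interval of the reported value or, for the label order, within 1.5 times the reported count of pairs. That limit passed all 15 label-order alternatives, down to 25 of 36 pairs. The lower barcode minimum left the Drop-seq share, sNucDrop-seq and DroNc-seq medians, label order and make-up distance unchanged. The alternative count minimums changed no median of cells over nuclei. The tally of 58 is thus no measure of robustness. Pairs of labels did turn: 25 of 36 kept their order by mt-Co2 or mt-Atp6 alone, 28 by mt-Co1 alone and 30 by the median barcode. Of cells over nuclei in the proximal tubule, TMM scaling gave medians of 8.76 against sNucDrop-seq, 10.05 against DroNc-seq and 9.37 against 10x nuclei, and median-of-ratios scaling 8.77, 10.06 and 9.29. Both centre the median gene, which lay at -0.93 to -0.80. Totals without mitochondrial and ribosomal protein genes gave 8.27 against sNucDrop-seq and 9.59 against DroNc-seq, and mean CPM over barcodes 7.49, 8.81 and 7.89 against the 3. A minimum of 1000 UMIs gave 8.19 against sNucDrop-seq, S1-S2 labels alone 9.54 against DroNc-seq, and members without a near-identical nuclear copy, chosen after seeing the data, 9.31 against 10x nuclei. The Drop-seq share was 8.25% from 1000 UMIs on, 7.99% without barcodes above 3 label medians, 7.26% as the median barcode and 24.3% with all mt- rows. The distance of the make-ups was 47.4 with healthy 10x in place of sNucDrop-seq nuclei and 19.4 without members that have a near-identical copy. UUO over healthy in all nuclei was -0.72 from 1000 UMIs on, -0.41 with TMM and -0.39 with median-of-ratios scaling, and in the proximal tubule -1.18 by mean CPM over barcodes. No paired analysis was possible because each group has 1 library, and for the same reason no replicate could be left out. Nuclei held 6 to 415 counts per transcript, library or proximal tubule sum, outside those at 0, which limits every ratio to nuclei. The causes of these shifts were not tested.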
